A study of Mus musculus with 6 samples.

Results

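BMP and ALK1 signalling was examined in RNA-seq of mouse lung endothelial cells (EC) through 10 genes chosen by symbol: the ligands Bmp6 and Bmp4, the receptors Acvrl1 (which encodes ALK1), Eng (endoglin) and Bmpr2, the inhibitory SMADs Smad6 and Smad7, and the target genes Id1, Id2 and Id3. These were 10 of 12623 genes and 12 of 17241 transcript rows in the table. RNA came from 3 libraries of infant and 3 of young adult lung EC, all from C57BL/6N mice without a transgene or treatment in the labels and described as independent biological replicates. Living cells carrying CD31 and CD34 and lacking PTPRC, LYVE1, LY76 and PDPN were sorted from digested lungs, so both groups passed through the same digestion and gate. Values are RPKM, reads scaled to the length of the transcript and to all mapped reads of the library, which permit levels of different genes to be compared per length.

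BMP ligands bind a complex of type I and type II receptors, and the type II receptor, such as BMPR2, activates the type I receptor. In endothelium the main type I receptor is ALK1, which with its co-receptor endoglin binds circulating BMP9 and BMP10 and phosphorylates SMAD1 and SMAD5. These SMADs join SMAD4 in the nucleus and switch on the Id genes, whose products block basic helix-loop-helix transcription factors, and also Smad6 and Smad7, whose products dampen the receptors in return. Inherited loss of ENG or ACVRL1 causes hereditary haemorrhagic telangiectasia, and loss of BMPR2 causes heritable pulmonary arterial hypertension, a disease of the lung vessels.

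The promoters of 4 members are given because the pathway acts on its own genes through SMAD binding motifs. RefSeq promoter entries (GRCm38.p6, the same coordinates as mm10) of 7 members were searched. Acvrl1 and Id1 had no entry. The promoter of Smad7 was not searched, so the counts out of 7 leave it out. Each entry was read from 250 bases before to 50 bases after the start, 300 bases in all, on both strands. The SMAD motif GTCT was present in 6 of the 7, against 88.0% of all 32851 promoter entries of that length. GGCGCC, the motif bound by SMAD1 and SMAD5, was present in 2, Bmpr2 and Id2, against 11.9% of all entries. The pair of GGCGCC, 5 bases and GTCT was in 0 of the 7, against 0.0731% of all entries. Smad6 carried GTCTAGAC, in which GTCT on one strand adjoins GTCT on the other, across its start, and 0.213% of all entries held it. This last motif was chosen after the sequences had been seen. The stretches below run 5′ to 3′ from 250 bases before to 4 bases after the start of transcription, and capitals mark the motifs (AGAC is GTCT on the other strand). Bmp6 (chr13:38345466-38345719, plus strand) is shown as the member with the highest fold change with age, Bmpr2 (chr1:59764029-59764282, plus strand) and Id2 (chr12:25096089-25096342, minus strand) for GGCGCC, and Smad6 (chr9:64022056-64022309, minus strand) for GTCTAGAC.
Bmp6: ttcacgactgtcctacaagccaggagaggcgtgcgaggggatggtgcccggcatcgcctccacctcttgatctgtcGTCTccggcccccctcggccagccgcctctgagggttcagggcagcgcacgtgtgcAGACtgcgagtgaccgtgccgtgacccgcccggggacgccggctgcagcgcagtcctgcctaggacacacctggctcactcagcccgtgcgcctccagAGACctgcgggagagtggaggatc
Bmpr2: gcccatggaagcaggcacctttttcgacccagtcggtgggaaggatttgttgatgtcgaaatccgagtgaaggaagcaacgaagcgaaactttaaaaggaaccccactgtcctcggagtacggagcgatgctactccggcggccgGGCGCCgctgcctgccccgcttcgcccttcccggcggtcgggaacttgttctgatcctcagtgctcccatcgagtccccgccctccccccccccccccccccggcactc
Id2: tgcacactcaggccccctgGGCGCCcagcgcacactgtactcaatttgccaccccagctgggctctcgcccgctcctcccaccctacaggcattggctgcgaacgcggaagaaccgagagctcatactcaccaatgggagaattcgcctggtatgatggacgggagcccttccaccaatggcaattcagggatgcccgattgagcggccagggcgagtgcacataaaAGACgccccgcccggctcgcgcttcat
Smad6: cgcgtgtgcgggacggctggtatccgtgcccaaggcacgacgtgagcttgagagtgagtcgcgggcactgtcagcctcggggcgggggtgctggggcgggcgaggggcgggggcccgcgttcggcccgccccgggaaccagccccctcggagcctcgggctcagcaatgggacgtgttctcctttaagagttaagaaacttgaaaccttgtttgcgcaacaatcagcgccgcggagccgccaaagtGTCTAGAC
A match of these letters does not show that a SMAD was bound there.

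All 10 members were above 1 RPKM in each of the 6 libraries, so each passed the filter for testing (1 RPKM in at least 1 library) in both age groups. Log2 fold changes (log2FC) are young adult minus infant on the log2(RPKM + 1) scale with their standard error, and adjusted p-values come from limma with Benjamini-Hochberg adjustment over all 12458 genes tested. A gene was called when the adjusted p was under 0.05 and the fold over 1.75. Of the members 2 were called, Bmp6 and Acvrl1, both higher in young adult EC. The background was 11.4% of all genes called in either direction and 3.33% called higher. By the adjusted p alone 6 members passed, all higher, against 25.5% of all genes in either direction and 9.26% higher. In 8 members the 3 infant and 3 young adult values did not overlap, all 8 with young adult EC higher, against 43.4% of all genes in either direction and 16.4% higher. The median log2FC was 0.63 over the members and -0.07 over all genes tested. The 16 endothelial marker genes had a median log2FC of 0.52, so the members' median lay close to that of general endothelial genes.

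**Figure D1:**
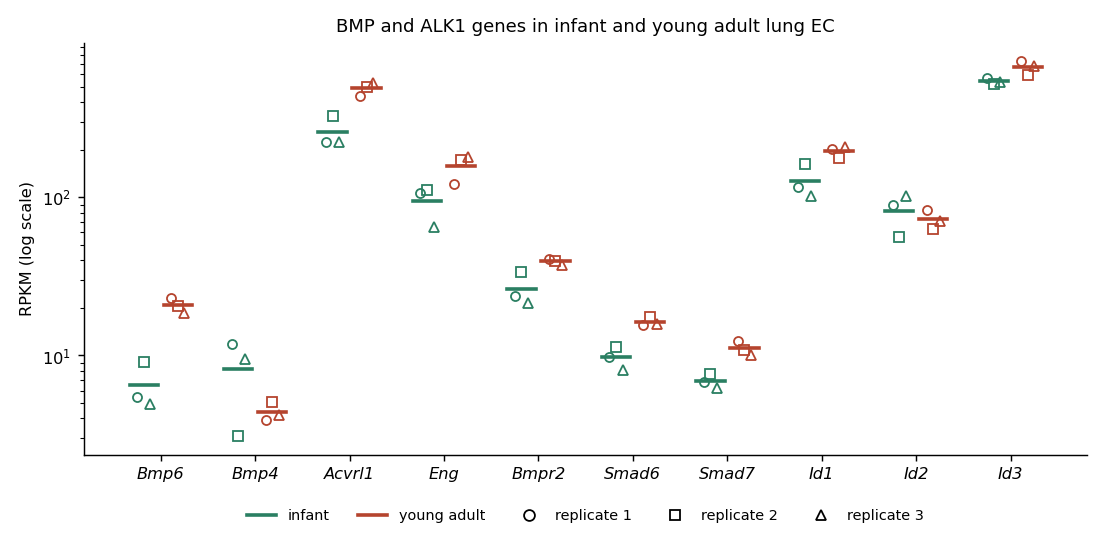
RPKM (log axis) of each member in the 3 infant (green) and 3 young adult (red) libraries; symbols mark the replicate number and bars the group mean. Bmp6 and Acvrl1 are clearly separated, Bmp4 and Id2 overlap, and infant replicate 2 (square) lies closest to the young adult values in several genes.

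Some properties of the libraries bear on every value given here. Infant replicate 2 stood apart from the other infant libraries: its log2 values correlated at 0.963 and 0.964 with theirs (Pearson's r across genes, which are not independent replicates) and at 0.949 to 0.963 with the young adult libraries, while infant replicates 1 and 3 correlated at 0.987 with each other. It held the highest infant value of 7 of the 10 members, against 35.7% of all genes and 83.1% of the 415 genes called higher. Without it, 5 members were called (Acvrl1, Eng, Bmp6, Id1 higher and Bmp4 lower) and 8 passed the adjusted p. The count of called genes over the whole table also rose without this library, from 1424 to 1874. All 4 Y-linked genes examined were detected in the 3 infant libraries (summed 42.2 to 47.0 RPKM) and listed at 0.0 in the 3 young adult libraries, although the study's methods name female mice. Age and sex therefore cannot be told apart in any comparison here. Fibroblast markers summed to 376.9 to 1341 RPKM in infant EC against 13.4 to 28.1 RPKM in young adult EC, with 11 of 12 tested called lower none at 0 throughout either group, and Col3a1 (log2FC -6.00) and Col1a1 (-5.87) the most abundant. Mural cell markers (13 of 14 called lower; most abundant Acta2, log2FC -3.24, and Tagln, -3.00) summed to 124.3 to 320.8 and 18.7 to 26.8 RPKM. Erythroid genes (7 of 7 called lower; Hba-a1 and Hba-a2, both log2FC -4.60) summed to 9656 to 79860 and 822.2 to 1351 RPKM. Leukocyte markers (5 of 14 called lower), of which Lyz2 (log2FC -0.37) and Laptm5 (-1.23) were the most abundant, summed to 334 to 535.7 and 144.5 to 568.6 RPKM, and epithelial markers (6 of 13 called lower and 1 higher), led by Sftpc (-0.67) and Scgb1a1 (-1.76), to 6642 to 11580 and 1849 to 8449 RPKM. Endothelial markers summed to 3954 to 5862 RPKM in infant EC against 6354 to 6771 RPKM in young adult EC, with 4 of 16 called higher and Egfl7 (log2FC 0.64) and Esam (0.62) the most abundant. By sign 13 of the 16 were higher and 3 lower, and 1 of them, Cd34 (log2FC -0.64), passed the adjusted p as lower. In such bulk samples fewer cells of a type and less RNA per cell cannot be told apart, and the part of these shifts in the members' changes was not tested.

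Of the 2 member ligands Bmp6 was called higher in young adult EC and Bmp4 did not pass. Bmp6, a BMP that endothelium itself produces and that is known from iron regulation in liver, had 5.5, 9.1 and 4.9 RPKM in the infant libraries, here and elsewhere in the order of replicates 1 to 3, against 23.2, 20.5 and 18.6 RPKM in the young adult libraries (NM_007556, chr13:38345716-38500314). The groups were wide apart, and the lowest young adult library was above the highest infant library. The mean was 6.50 ± 2.27 RPKM (SD, n = 3) in infant and 20.8 ± 2.31 RPKM (SD, n = 3) in young adult EC, a ratio of 3.20. Its log2FC was 1.57 ± 0.20 (95% interval 1.11 to 2.04, limma adjusted p = 0.00284). This was the member with the largest change, and it was called under each scaling and after leaving out each library in turn, with a log2FC between 1.42 and 1.81 in the latter. It was not called when the test itself was set against the 1.75-fold threshold (limma treat, adjusted p = 0.114).

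Bmp4, a ligand made mainly by mesenchymal cells in the lung but also by endothelium, stood at 11.9, 3.1 and 9.5 RPKM in infant EC and at 3.9, 5.1 and 4.2 RPKM in young adult EC (NM_007554, chr14:46383525-46390669). Infant replicate 2 was the lowest of all 6 libraries and the other infant libraries were the highest, so the groups overlapped. The log2FC was -0.61 ± 0.38 (95% interval -1.50 to 0.27, limma adjusted p = 0.267). Without infant replicate 2 the log2FC was -1.11 and Bmp4 was called (limma adjusted p = 0.000844), so this single library decided the result. The sums of the fibroblast and of the mural cell markers were likewise lowest in replicate 2 of the infant libraries (376.9 and 124.3 RPKM). Not every gene followed the sums. Dcn (7.6, 19.9 and 8.0 RPKM in infant EC) and Lum (4.1, 14.4 and 4.7 RPKM) were highest there. Higd1b, Cox4i2 and Notch3 were not lowest there, while the other genes of both lists were. The part of these markers in the Bmp4 values was not tested. The log2 ratio of Bmp6 to Bmp4, which does not depend on the scaling of a library, was -1.11, 1.55 and -0.96 in infant and 2.57, 2.01 and 2.15 in young adult EC. Bmp6 was thus under Bmp4 in 2 infant libraries and above it in all others. The mean ratio differed by 2.41 (two-sided exact permutation test, p = 0.1, which is the smallest that 3 against 3 libraries allow, adjusted p = 0.2 over 6 ratios).

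Among the receptors, Acvrl1 was the most abundant and was higher in young adult EC. Its values were 224.0, 327.5 and 223.9 RPKM in infant EC against 440.2, 496.8 and 531.1 RPKM in young adult libraries (NM_009612, chr15:101128522-101145336). Every young adult library exceeded every infant library. The means of 258.5 ± 59.8 and 489.4 ± 45.9 RPKM (SD, n = 3 each) gave a ratio of 1.89 and a log2FC of 0.94 ± 0.19 (95% interval 0.50 to 1.37, limma adjusted p = 0.0127). Without young adult replicate 2 the call was lost (log2FC 0.92, limma adjusted p = 0.0608). Acvrl1 ranked at the 98.9th to 99.3rd percentile of all genes in the table in infant and at the 99.6th in young adult EC.

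Eng, the co-receptor that presents ligand to ALK1, was at 107.1, 110.7 and 65.1 RPKM in infant EC against 121.5, 171.2 and 180.5 RPKM in young adult EC (NM_007932, chr2:32646595-32682669). The groups did not overlap, yet infant replicate 2 and young adult replicate 1 were close. The means were 94.3 ± 25.4 and 157.7 ± 31.7 RPKM (SD, n = 3 each), and the log2FC of 0.75 ± 0.24 missed the threshold (95% interval 0.20 to 1.31, limma adjusted p = 0.0528). It was called without infant replicate 2 (log2FC 0.89, limma adjusted p = 0.0248) and with median-ratio scaling. The table held 3 transcript rows of Eng, and the other rows (NM_001146348 and NM_001146350) ranged from 63.2 to 109.0 RPKM in infant and from 118.1 to 178.4 RPKM in young adult EC, nearly the values of the first. Transcripts of 1 gene share exons and thus reads, so these rows did not tell the transcripts apart. The log2 ratio of Acvrl1 to Eng was 1.07, 1.57 and 1.78 in infant and 1.86, 1.54 and 1.56 in young adult EC, overlapping, with 0.18 apart in the mean (p = 0.6 and adjusted p = 0.6, two-sided exact permutation test).

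Bmpr2, the BMP type II receptor, had 23.8, 33.7 and 21.6 RPKM in infant EC against 41.0, 39.8 and 37.2 RPKM in young adult libraries (NM_007561, chr1:59764279-59878081). No young adult value fell within the infant range, and infant replicate 2 was again nearest to the young adult libraries. Its means were 26.4 ± 6.45 and 39.3 ± 1.94 RPKM (SD, n = 3 each), and the log2FC of 0.58 ± 0.16 passed the adjusted p but not the fold (95% interval 0.21 to 0.96, limma adjusted p = 0.0349). The pass was lost when any single library other than infant replicate 2 was left out (limma adjusted p = 0.0735 to 0.112), and without infant replicate 2 it was 0.000908. Tgfbr2, the type II receptor of the TGFβ branch, took the opposite course, from 24.6, 20.4 and 26.0 to 12.6, 10.7 and 14.4 RPKM (log2FC -0.86 ± 0.14, limma adjusted p = 0.0057), and was the 1 gene called, lower, of 4 tested in that branch. The log2 ratio of Bmpr2 to Tgfbr2 was accordingly -0.05, 0.72 and -0.27 in infant and 1.70, 1.90 and 1.37 in young adult EC. The difference in the mean of 1.52 separated the groups fully (two-sided exact permutation test, p = 0.1, which is the smallest possible, adjusted p = 0.2).

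The widely used BMP type I receptor Bmpr1a (ALK3) was a minor transcript beside Acvrl1 and was called lower. It was at 1.9, 0.9 and 2.3 RPKM in infant EC against 0.2 RPKM in each young adult library (log2FC -1.13 ± 0.21, limma adjusted p = 0.0107). The log2 ratio of Acvrl1 to Bmpr1a was 6.88, 8.51 and 6.61 in infant and 11.10, 11.28 and 11.38 in young adult EC, 3.92 apart in the mean (two-sided exact permutation test, p = 0.1, which is the smallest possible, adjusted p = 0.2). The young adult values of Bmpr1a were close to the rounding step of 0.1 RPKM, so this ratio is coarse. ALK1 transcripts exceeded those of Bmpr1a in every library by far more than they changed with age.

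**Figure D2:**
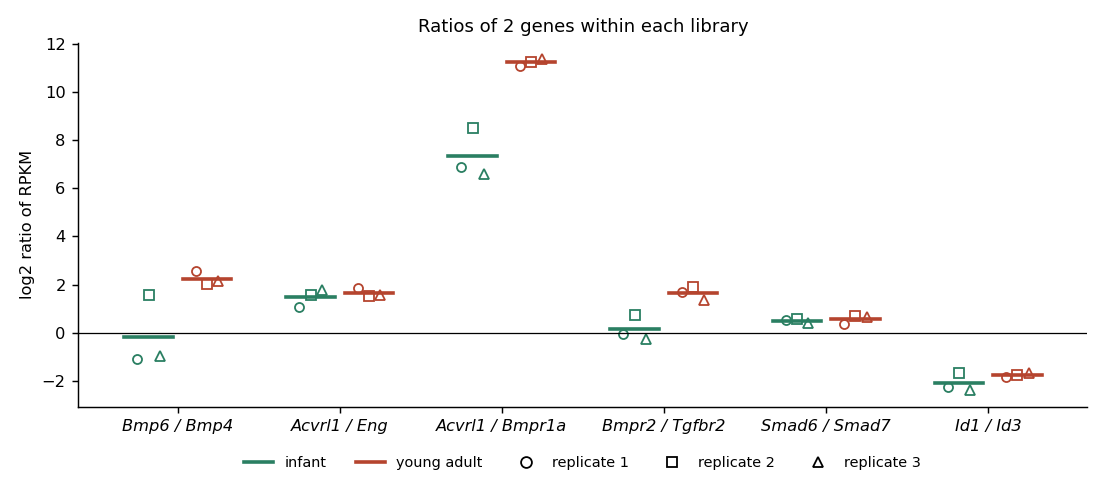
Log2 ratio of RPKM of 2 genes within each library, for the 6 ratios compared, in infant (green) and young adult (red) EC; bars are group means and symbols mark the replicate number. Bmp6 / Bmp4, Acvrl1 / Bmpr1a and Bmpr2 / Tgfbr2 do not overlap between the groups, while Acvrl1 / Eng, Smad6 / Smad7 and Id1 / Id3 do.

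The inhibitory SMADs were both higher in young adult EC by the adjusted p and both under the 1.75-fold threshold. Smad6, which acts mainly on BMP type I receptors, was at 9.8, 11.3 and 8.1 RPKM in infant EC against 15.7, 17.4 and 15.8 RPKM in young adult EC (NM_008542, chr9:63953076-64022085). The ranges were separate and the spread within each group was small. Means of 9.73 ± 1.60 and 16.3 ± 0.954 RPKM (SD, n = 3 each) gave a log2FC of 0.70 ± 0.13 (95% interval 0.41 to 0.99, limma adjusted p = 0.00914). Smad7, which also blocks the TGFβ branch, went from 6.8, 7.6 and 6.2 RPKM to 12.4, 10.8 and 10.1 RPKM (NM_001042660, chr18:75367365-75395935). Here too each young adult library was above each infant library, and the log2FC was 0.62 ± 0.11 (95% interval 0.36 to 0.88, limma adjusted p = 0.00959). Both passed the adjusted p after leaving out each of the 6 libraries in turn. Neither passed when libraries were scaled to their endothelial markers, with a log2FC of 0.23 for Smad6 (limma adjusted p = 0.252) and 0.17 for Smad7 (limma adjusted p = 0.425). Their log2 ratio was 0.53, 0.57 and 0.39 in infant and 0.34, 0.69 and 0.65 in young adult EC, so their balance overlapped between the ages (0.06 apart in the mean, p = 0.6 and adjusted p = 0.6, two-sided exact permutation test).

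Of the Id genes Id1 passed the adjusted p, under the fold threshold, and Id2 and Id3 did not pass. Id1 was at 117.1, 162.4 and 102.6 RPKM in infant EC against 202.4, 177.6 and 209.8 RPKM in young adult EC (NM_010495, chr2:152736251-152737410). Infant replicate 2 came close to young adult replicate 2 without overlap. The means were 127.4 ± 31.2 and 196.6 ± 16.9 RPKM (SD, n = 3 each), with a log2FC of 0.65 ± 0.18 (95% interval 0.23 to 1.07, limma adjusted p = 0.0369). That pass was lost without any single library other than infant replicate 2 (limma adjusted p = 0.0859 to 0.113), and without infant replicate 2 Id1 was called (log2FC 0.83, limma adjusted p = 0.0017). Its pass was also lost with quantile normalization (limma adjusted p = 0.0552) and with scaling to endothelial markers (log2FC 0.14, limma adjusted p = 0.45).

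Id3 was the most abundant member, at 570.3, 519.0 and 538.4 RPKM in infant EC against 724.7, 596.1 and 679.9 RPKM in young adult EC (NM_008321, chr4:136143822-136145392). The ranges did not overlap, but the log2FC of 0.29 ± 0.15 did not pass (95% interval -0.06 to 0.65, limma adjusted p = 0.195), and it was -0.21 when libraries were scaled to their endothelial markers. Id2, which is also induced by other signals, was at 89.9, 56.1 and 101.8 RPKM in infant EC against 82.9, 63.4 and 71.4 RPKM in young adult EC (NM_010496, chr12:25093799-25096092). Its groups overlapped, with a log2FC of -0.15 ± 0.22 (95% interval -0.66 to 0.36, limma adjusted p = 0.649), which leaves room for a change in either direction. The log2 ratio of Id1 to Id3 was -2.28, -1.68 and -2.39 in infant and -1.84, -1.75 and -1.70 in young adult EC, 0.36 apart in the mean (p = 0.4 and adjusted p = 0.6, two-sided exact permutation test). Infant replicate 2 was the highest of the 6 libraries in this ratio.

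Ordered by mean RPKM, the members ran Id3, Acvrl1, Id1, Eng, Id2, Bmpr2, Smad6, Bmp4, Smad7 and Bmp6 in infant EC. Neighbours whose ranges overlapped there were Id1 and Eng, Eng and Id2, Smad6 and Bmp4, Bmp4 and Smad7, and Smad7 and Bmp6. In young adult EC the order of the first 6 was the same, followed by Bmp6, Smad6, Smad7 and Bmp4, and only Id1 and Eng overlapped. Bmp6 thus moved from the last to the seventh place and Bmp4 from the eighth to the last. The summed level of all 10 was 1166, 1240 and 1082 RPKM in infant EC against 1668, 1599 and 1759 RPKM in young adult libraries. Id3 was the largest part of the level in both groups (mean 542.6 and 666.9 RPKM). Acvrl1 added more to the rise (mean 258.5 and 489.4 RPKM).

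The rest of the pathway was taken from 5 lists of 81 genes, of which 51 were in the table and tested. In these lists 2 genes were called higher and 14 lower, and by the adjusted p alone 2 were higher and 22 lower. Over all genes tested 3.33% were called higher and 8.1% lower, and by the adjusted p alone 9.26% were higher and 16.2% lower. Their median log2FC was -0.35, opposite in sign to that of the members. The other 30 genes were not analysed here, among them Gdf2 and Bmp10, which encode the ALK1 ligands BMP9 and BMP10.

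**Figure D3:**
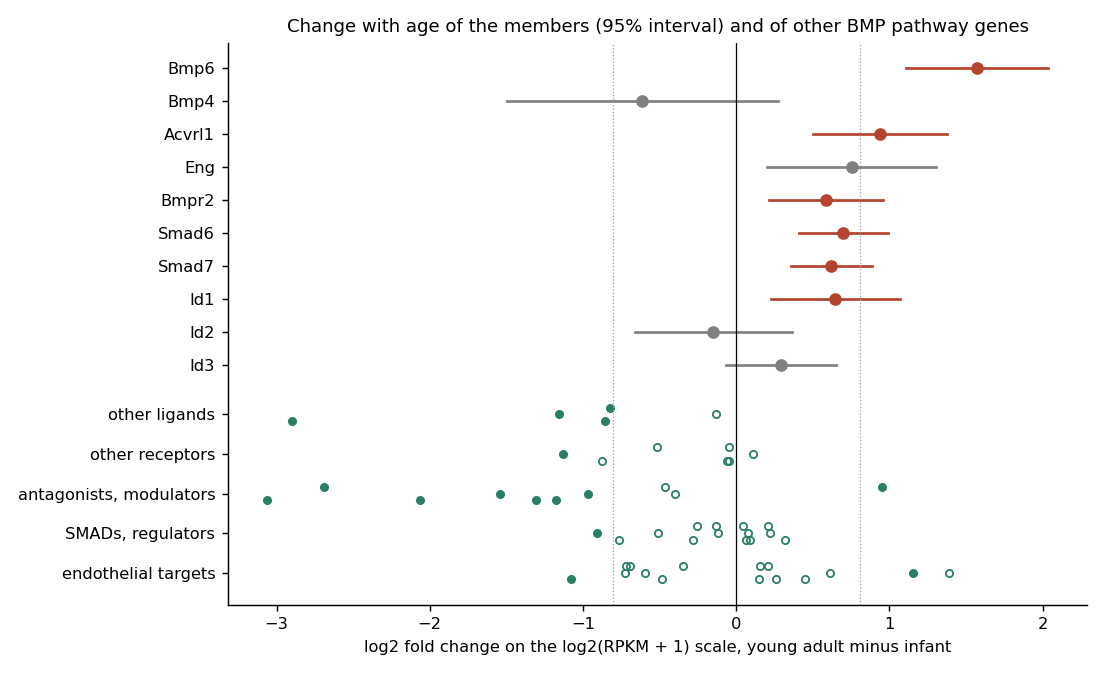
Log2FC (young adult minus infant, log2(RPKM + 1) scale) of each member with its 95% interval (red, adjusted p under 0.05; grey, not) and of the 51 other pathway genes (green; filled, called). Dotted lines mark the 1.75-fold threshold; 8 of the 10 members lie to the right of 0, while the called ligands, all 4 of them, and 7 of 8 called antagonists and modulators lie to the left.

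Of 5 other ligands tested 4 were called lower, against 8.1% of all genes. Bmp5 had the largest change, from 25.1, 7.2 and 21.5 RPKM in infant to 0.6, 1.7 and 1.7 RPKM in young adult EC (log2FC -2.90 ± 0.43, limma adjusted p = 0.00456). Bmp1, which despite its name is a protease that processes procollagen and frees BMPs from chordin, went from 11.6, 7.0 and 12.6 to 5.6, 4.5 and 5.4 RPKM (log2FC -0.85, limma adjusted p = 0.0208). Bmp2 (log2FC -1.16) and Bmp3 (log2FC -0.82) were at 2.3 RPKM or less in every library. The calls of Bmp1, Bmp2 and Bmp3 were each lost when infant replicate 1 or 3 or young adult replicate 1 or 2 was left out, with limma adjusted p-values of 0.0513 to 0.0859, and that of Bmp1 also on leaving out young adult replicate 3 (0.0538). With quantile normalization Bmp2 (limma adjusted p = 0.0605) and Bmp3 (0.113) did not pass. In each of the 4 genes infant replicate 2 was the lowest infant library, as it was in 77.9% of the 1009 genes called lower.

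Among 10 extracellular antagonists and modulators 7 were called lower and 1 higher, against 8.1% and 3.33% of all genes. The median log2FC of this list was -1.24. Mgp, matrix Gla protein, which binds BMPs, was at 457.7, 133.0 and 563.1 RPKM in infant EC against 27.8, 49.9 and 39.6 RPKM in young adult EC (log2FC -3.06 ± 0.51, limma adjusted p = 0.00681). Fstl1, a follistatin-like protein that binds BMP4, went from 376.1, 90.1 and 347.3 to 32.9, 38.2 and 32.6 RPKM (log2FC -2.69 ± 0.49, limma adjusted p = 0.00956). These were the most abundant genes of the list, and in both of them infant replicate 2 lay between the other infant libraries and the young adult libraries. Twsg1, which promotes or blocks BMP action together with chordin, fell from 13.8, 6.7 and 13.4 to 2.8, 2.8 and 3.6 RPKM (log2FC -1.54, limma adjusted p = 0.00596). The BMP-binding protein Bmper (log2FC -1.31) and the activin antagonist Fstl3 (log2FC -1.18) were at 2.7 RPKM or less. The protease Htra1, with 9.3, 0.9 and 9.2 RPKM in infant EC against 0.4 RPKM in each young adult library, had a log2FC of -2.06 (limma adjusted p = 0.0398). The calls of Fstl3 and Htra1 held among the leave-one-out fits only without infant replicate 2 (otherwise limma adjusted p = 0.0545 to 0.129), and that of Bmper was lost without young adult replicate 1 (0.0517). With quantile normalization Fstl3 and Htra1 also did not pass (both limma adjusted p = 0.0696), nor did Htra1 with a pseudocount of 5 (0.0588) or a robust fit (0.0763).

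Crim1 was the gene of this list called higher, a call lost with scaling to endothelial markers (log2FC 0.51, limma adjusted p = 0.0723). It encodes a transmembrane protein that binds BMPs at the cell that makes them, and it was at 4.1, 4.6 and 5.3 RPKM in infant EC against 12.1, 10.0 and 8.0 RPKM in young adult EC (log2FC 0.95 ± 0.15, limma adjusted p = 0.00634). Its infant values were narrow and infant replicate 2 was not apart from them. The summed level of the 10 antagonists and modulators was 872.7, 243.4 and 948.7 RPKM in infant EC against 79.1, 104.8 and 88.5 RPKM in young adult EC. Fibroblast markers summed to 1341, 376.9 and 980.6 RPKM against 13.4, 28.1 and 24.8 RPKM. Mural cell markers summed to 283.7, 124.3 and 320.8 RPKM against 18.7, 26.8 and 24.8 RPKM. Both sums were likewise lowest in replicate 2 of the infant libraries, though not every gene of these lists was. The part of these markers in the fall of the ligands and antagonists was not tested.

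**Figure D4:**
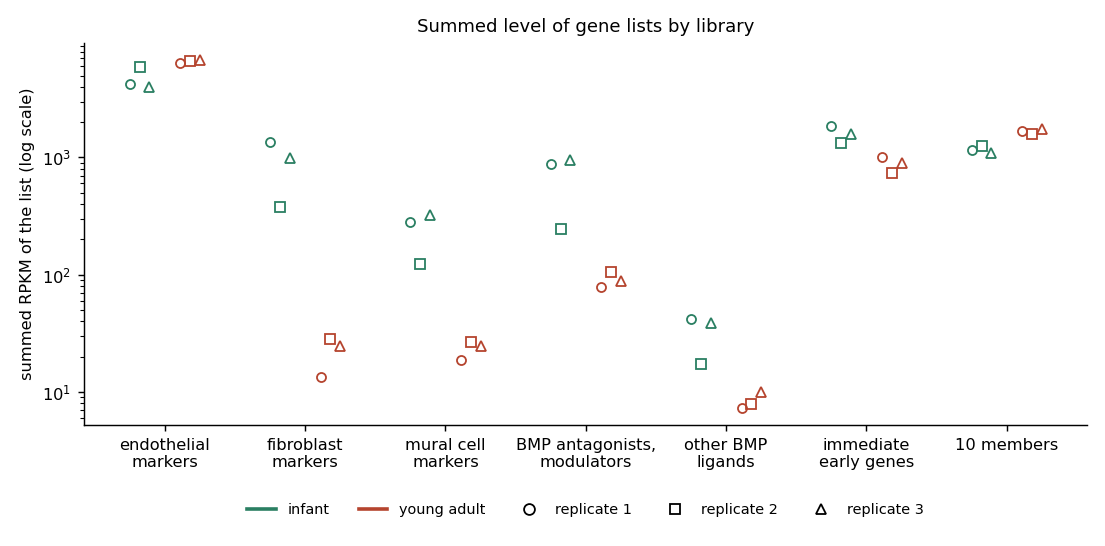
Summed RPKM (log axis) of 7 gene lists in the 3 infant (green) and 3 young adult (red) libraries; symbols mark the replicate number. Infant replicate 2 (square) is above the other infant libraries for endothelial markers and the 10 members. It is below them for fibroblast and mural cell markers, BMP antagonists and modulators, other BMP ligands and immediate early genes.

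Of the other receptors and the intracellular genes 1 of 7 and 1 of 14 were called, against 11.4% of all genes. Of 7 other receptors and co-receptors tested only Bmpr1a was called, and Tgfbr3 (betaglycan, the most abundant of the list) had a log2FC of -0.05 ± 0.12 (limma adjusted p = 0.795), or 0.017 with median-ratio scaling, and passed as lower with scaling to endothelial markers (log2FC -0.52, limma adjusted p = 0.0378). Of 14 transducers and regulators 1 was called, Pdcd4, a translation inhibitor, which was lower (log2FC -0.91 ± 0.12, limma adjusted p = 0.00312). Fkbp1a, which keeps type I receptors inactive without ligand and was the most abundant of this list, had a log2FC of 0.06 ± 0.15 (limma adjusted p = 0.793), or -0.080 with quantile normalization, -0.045 without erythroid genes and -0.44 with scaling to endothelial markers. The receptor-activated Smad1 (log2FC 0.32, limma adjusted p = 0.0791) and the common Smad4 (log2FC -0.26, limma adjusted p = 0.099) did not pass, and Smad5 passed the adjusted p as lower (log2FC -0.51, limma adjusted p = 0.0407). These 3, with Acvr1 below, were chosen after their values were seen, for their place in the cascade. Acvr1 (ALK2), a further BMP type I receptor, had a log2FC of -0.05 ± 0.12 (limma adjusted p = 0.796).

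Of 15 endothelial target genes tested 1 was called higher and 1 lower, against 3.33% and 8.1% of all genes. Sema3g, a secreted semaphorin of arterial endothelium, rose from 10.6, 10.2 and 8.5 to 21.5, 30.2 and 18.4 RPKM (log2FC 1.15 ± 0.18, limma adjusted p = 0.00533), and was under the fold threshold with scaling to endothelial markers (log2FC 0.68, limma adjusted p = 0.0274). Gja5, the arterial connexin Cx40, fell from 21.7, 17.9 and 18.2 to 7.9, 12.3 and 6.4 RPKM (log2FC -1.08 ± 0.21, limma adjusted p = 0.0112), a call lost without young adult replicate 1 (limma adjusted p = 0.0513). Tmem100, a membrane protein induced by ALK1 in endothelium, was the most abundant of the list, at 537.6, 932.6 and 634.0 RPKM in infant EC against 1069.5, 1106.5 and 966.4 RPKM in young adult EC. Its ranges did not overlap, but the log2FC of 0.61 ± 0.23 did not pass (limma adjusted p = 0.0894), and without infant replicate 2 it was called (log2FC 0.84, limma adjusted p = 0.00424).

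The scaling of the libraries decided several of the members' passes. When each library was scaled to the median of its 16 endothelial markers, an alternative added after seeing the data, the median log2FC of all genes moved from -0.07 to -0.49 and the share of higher among called genes moved from 29.1% to 6.78%. Of the members, 1 was then called, Bmp6 (log2FC 1.12, limma adjusted p = 0.00151), and Acvrl1 passed the adjusted p alone (log2FC 0.43, limma adjusted p = 0.0463). Smad6, Smad7, Id1 and Bmpr2 (log2FC 0.09, limma adjusted p = 0.618) no longer passed. This scaling multiplies all genes of a library by 1 factor, so values relative to the median of all genes barely depend on it by construction (1.01 and 0.92 for Acvrl1, 1.64 and 1.61 for Bmp6) and do not bear on the lost passes. Under quantile normalization the median of all genes was 0.04 and 46.5% of called genes were higher. Relative to that median Acvrl1 was then at 0.73, Bmp6 at 1.60 and Id3 at -0.04, where Id3 had been at 0.36, and the count of called members was 1, since Acvrl1 (log2FC 0.77) fell under the fold. Of the endothelial markers themselves, Pecam1, which encodes the sorting antigen CD31, had a log2FC of 0.69 (limma adjusted p = 0.0513) and Cdh5 (VE-cadherin) one of 0.28 (limma adjusted p = 0.256), which was -0.23 with scaling to endothelial markers. Cd34, which encodes the other sorting antigen, went the opposite way, from 449.4, 500.6 and 422.7 to 254.4, 278.3 and 354.8 RPKM (log2FC -0.64, limma adjusted p = 0.0301).

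**Figure D5:**
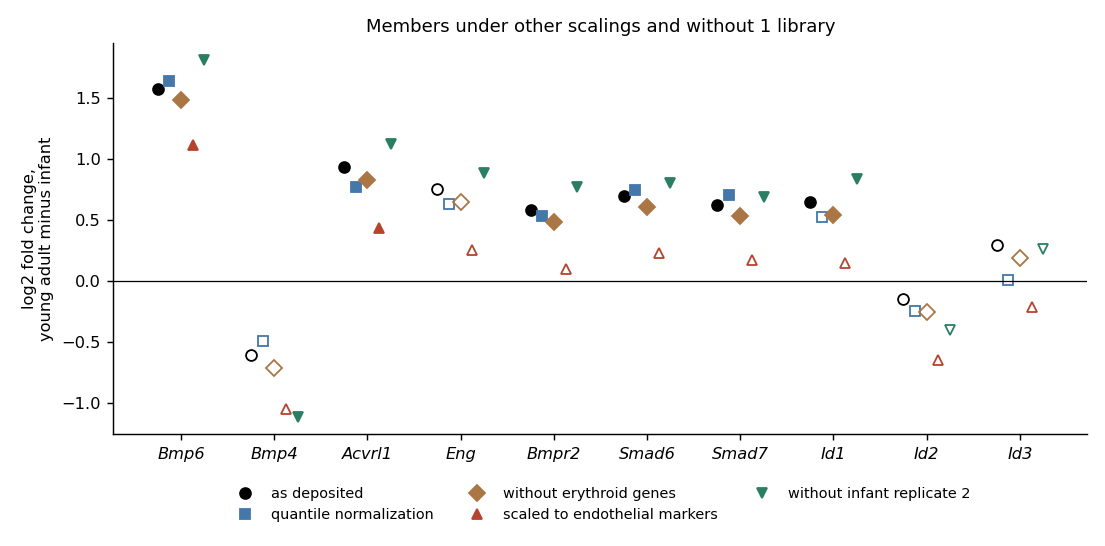
Log2FC of the members with the deposited scaling, with 3 other scalings and without infant replicate 2; filled symbols mark a limma adjusted p under 0.05. Scaling to endothelial markers lowers every member, leaving Bmp6 and Acvrl1 filled, while leaving out infant replicate 2 fills 8 members, including Bmp4 and Eng.

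The genes whose values over the 6 libraries were most like those of a member were found by the distance between log2 values centred on each gene's mean, over 6983 genes with a mean of at least 5 RPKM. For Acvrl1 these were Parp10 (distance 0.0659), Tmbim1 (0.138) and Pllp (0.155). For Smad6 they were Mill2 (0.0756), Tbc1d10a (0.0965) and Arsa (0.126), and for Id1 they were Dtx3l (0.13), Trim12a (0.139) and Egfl7 (0.148), of which Egfl7 is also one of the endothelial markers. None of these 9 genes was in a BMP pathway list. The pattern they share is that of infant replicate 2 between the other infant and the young adult libraries, which 345 of the 415 genes called higher also had in the form of their highest infant value (83.1%).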

How the data were processed

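RNA-seq was performed on sorted lung EC in 6 libraries, 3 per age group, grouped and numbered by their titles. Amplified cDNA libraries (SMARTer kit) were aligned to mm10 with STAR, and DESeq2 was used by the authors for their own test (the study's methods and the submitters' processing notes, which give no versions). The deposited table held RPKM values computed by the authors, 1 row per RefSeq transcript, rounded to 0.1; the program that made them is not given in the sources used here. Counts were not analysed here, so the depth of a library is unknown and no counting interval was given. RPKM is relative to all mapped reads, so abundant haemoglobin reads lower every other gene.

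For each gene the row with the highest mean was kept (2842 genes had more than 1), after 24 symbols turned into dates had been restored by accession. limma 3.58.1 (R 4.3.3) was fitted to log2(RPKM + 1) of 12458 genes at 1 RPKM or more in at least 1 library, with age as the only term, an intensity trend and Benjamini-Hochberg adjustment. Called meant an adjusted p under 0.05 and a fold over 1.75 on that scale; the RPKM filter and the fold of 1.75 follow the study, whose test was another and whose p is not stated to be adjusted. A pseudocount of 1 understates changes of low genes. Ratios within a library were compared with exact two-sided permutation tests (scipy 1.17.1). On simulated data with the size of this comparison (12458 genes, 200 changed by 1.5 on the log2 scale) 90.5% of changed genes were recovered, with 5 false calls. All members but Bmp6 changed by less than 1.5, and the simulated noise was independent between libraries. The recovered share therefore does not give the power for those members. Low genes were simulated only as rising, so the share does not cover falls of low genes.

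The members and lists were chosen with earlier results of these data known. Named were all members, each called pathway gene but 1 that is not reported here, the most abundant gene of each pathway list, Tgfbr2, Pecam1, Cdh5, the 2 most abundant genes of a marker list that moved with age, and the 3 genes most like Acvrl1, Smad6 and Id1. Same-numbered libraries did not deviate together (correlations 0.0282, -0.11 and -0.0208). Alternatives were other pseudocounts, filters, scalings, fits and leaving out each library, plus scaling to endothelial markers, chosen after seeing the data. Protein sequences were not used here.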

Additional observations from a re-analysis of the deposited data

How the results depend on the processing

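Depth is unknown, 3 libraries per group limit each permutation test to p = 0.1, and values near 0.1 RPKM are coarse. The 1424 genes called were 578 with a pseudocount of 5, 176 with treat and 2641 with scaling to endothelial markers, and 842 to 1874 with 1 library left out. Of the members 2 were called, with quantile normalization 1, with endothelial scaling 1, and with treat 0 (limma treat, 1 at an unadjusted p under 0.05), and 1 to 5 with 1 library left out, 5 on leaving out infant replicate 2 and 1 on leaving out young adult replicate 2. By the adjusted p 6 members passed, 2 with endothelial scaling and 3 to 8 with 1 library left out. The 16 other pathway genes called were 6 with a pseudocount of 5, 9 with quantile normalization, 1 with treat, 25 with endothelial scaling and 10 to 20 with 1 library left out. The sign turned in these values: Id3 -0.21, Cdh5 -0.23 and Fkbp1a -0.44 with endothelial scaling, Fkbp1a -0.080 and Sftpc 0.091 with quantile normalization, Fkbp1a -0.045 with rescaling without erythroid genes, and Tgfbr3 0.017 with median-ratio scaling. With 1 library left out, log2FC ran from -0.40 to 0.022 for Id2, -0.15 to 0.021 for Tgfbr3, -0.042 to 0.15 for Fkbp1a and -0.83 to 0.14 for Lyz2, and the difference in log2 ratio from -0.023 to 0.34 for Acvrl1 to Eng and from -0.0021 to 0.17 for Smad6 to Smad7. The cause was not tested. With the replicate block 1371 genes, 2 members and 17 other pathway genes were called, and Id1 lost its pass (limma adjusted p = 0.0708). The replicate numbers are shared only by name.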

Other observations

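The proteins that Id proteins bind or act upon were examined as a list of 10 genes, all tested, of which 1 was called lower and none higher (by the adjusted p in limma, 1 higher and 4 lower, median log2FC -0.17). Over all genes tested 8.1% were called lower and 3.33% higher, and by the adjusted p alone 16.2% were lower and 9.26% higher. Tcf4, which encodes the E protein E2-2 and is a direct partner of the Id proteins, was at 53.6, 62.9 and 54.2 RPKM in infant EC against 61.4, 59.6 and 55.5 RPKM in young adult EC, with overlapping groups (log2FC 0.05 ± 0.11, limma adjusted p = 0.758). Tcf12, which encodes the E protein HEB, was lower by the adjusted p (13.0, 9.2 and 13.3 to 8.1, 7.3 and 7.3 RPKM, log2FC -0.57 ± 0.14, limma adjusted p = 0.0262) but under the fold. Ets1, an ETS factor of endothelium, was at 154.0, 153.5 and 157.1 RPKM in infant EC against 106.6, 101.4 and 91.2 RPKM in young adult EC (log2FC -0.63 ± 0.11, limma adjusted p = 0.00776), with infant replicate 2 level with the other infant libraries. Thbs1, the angiogenesis inhibitor thrombospondin 1 and a gene repressed by Id1, was called lower, from 90.8, 33.8 and 79.9 to 8.5, 9.5 and 8.9 RPKM (log2FC -2.68 ± 0.33, limma adjusted p = 0.00245). Infant replicate 2 was the lowest infant library of Thbs1, and a link to Id1 was not tested. Rb1 was the gene higher by the adjusted p, under the fold (log2FC 0.48 ± 0.13, limma adjusted p = 0.034). Tcf4, Tcf12, Ets1, Thbs1 and Rb1 were chosen after their values were seen.

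Immediate early and dissociation genes, listed because Id1 and Id2 respond to many stimuli, were called lower in 10 of 22 cases, and none was called higher. The shares over all genes tested were 8.1% and 3.33%. Their summed level was 1843, 1327 and 1587 RPKM in infant EC against 1018, 742.1 and 904.6 RPKM in young adult EC. Fos went from 318.4, 193.0 and 330.0 to 81.6, 59.3 and 67.6 RPKM (log2FC -1.97, limma adjusted p = 0.002) and Zfp36 from 285.0, 208.4 and 240.3 to 154.9, 121.1 and 125.6 RPKM (log2FC -0.86, limma adjusted p = 0.0103). The part of this shift in the values of the Id genes was not tested.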
